A study of Mus musculus with 6 samples.

Results

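Iron uptake and mitochondrial iron transport were followed through 8 genes of developing mouse red cells: Tfrc, Steap3, Slc11a2, Slc25a37, Slc25a38, Abcb10, Abcb6 and Glrx5. The genes were chosen by name for their place on the route of iron into heme. Every array probe set whose single gene symbol in the platform annotation is one of these 8 was taken, which gave 20 of 45101 probe sets. Of these 20, 3 are Tfrc control probe sets and the other 17 entered the tests. A further probe set that carries the symbol of Slc25a37 together with that of another gene was left out. RNA came from S1 and S3, 2 subsets of red cell precursors sorted from fetal livers of Balb/C embryos, with 3 arrays per subset from sorts on 3 separate days. S1 holds less mature cells than S3 in this scheme. The labels give no genetic change and no treatment for either subset. The labels of embryo age disagree: by stage, S1 is of embryonic day 12.5 and S3 of day 13.5, while by source all 6 arrays are of day 13.5. Embryo age and subset therefore cannot be told apart under the stage label. How many embryos went into each sort is not given in the sources used here. Cells were sorted on CD71, Ter119 (a red cell surface antigen) and a mixture of antibodies to other lineages, and CD71 is the protein that Tfrc encodes. The comparison asks how transcripts of the iron route differ between the earlier and the later subset.

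Red cell precursors take up iron bound to transferrin through the transferrin receptor. In the endosome the iron is released, reduced and passed to the cytosol, and in the mitochondrion it is joined to protoporphyrin to make heme or built into iron-sulfur clusters. Tfrc is the receptor, Steap3 the endosomal reductase and Slc11a2 (DMT1) the carrier out of the endosome. Slc25a37 (mitoferrin 1) carries iron across the inner mitochondrial membrane, and Slc25a38 is a mitochondrial carrier whose loss causes sideroblastic anemia and which is held to import glycine for heme synthesis. Abcb10 and Abcb6 are ATP-binding cassette transporters placed in the inner mitochondrial membrane and, for Abcb6, in the outer membrane and other membranes. Glrx5 is the mitochondrial glutaredoxin that acts in the iron-sulfur cluster pathway.

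RefSeq promoter sequences (build GRCm38.p6) were at hand for 6 of the 8 genes, in 10 windows. The 250 bases before the start are shown for Abcb10, Slc25a38 and Abcb6, whose array values were higher in S3, and for the first start of Steap3, whose values followed the array rather than the subset. Capitals mark matches on either strand to a GATA motif (AGATAA, with T also allowed as the first letter and G as the last) or to a CACC motif (CCNCNCCC), and matches may overlap. Each sequence is written 5′ to 3′ on the gene's own strand.
Abcb10: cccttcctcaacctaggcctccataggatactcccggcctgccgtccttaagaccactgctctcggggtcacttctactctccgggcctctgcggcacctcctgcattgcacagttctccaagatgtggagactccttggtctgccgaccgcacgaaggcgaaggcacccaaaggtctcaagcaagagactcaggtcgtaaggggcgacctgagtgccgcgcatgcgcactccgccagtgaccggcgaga
Slc25a38: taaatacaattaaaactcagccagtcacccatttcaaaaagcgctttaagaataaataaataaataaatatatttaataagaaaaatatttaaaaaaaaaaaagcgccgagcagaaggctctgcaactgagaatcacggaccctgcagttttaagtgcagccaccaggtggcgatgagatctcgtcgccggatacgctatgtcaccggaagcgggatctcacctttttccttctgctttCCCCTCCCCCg
Abcb6: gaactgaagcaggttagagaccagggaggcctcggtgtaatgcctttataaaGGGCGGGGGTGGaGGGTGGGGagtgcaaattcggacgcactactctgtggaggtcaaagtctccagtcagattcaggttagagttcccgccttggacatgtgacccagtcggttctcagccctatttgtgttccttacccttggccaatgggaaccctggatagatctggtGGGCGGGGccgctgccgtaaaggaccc
Steap3: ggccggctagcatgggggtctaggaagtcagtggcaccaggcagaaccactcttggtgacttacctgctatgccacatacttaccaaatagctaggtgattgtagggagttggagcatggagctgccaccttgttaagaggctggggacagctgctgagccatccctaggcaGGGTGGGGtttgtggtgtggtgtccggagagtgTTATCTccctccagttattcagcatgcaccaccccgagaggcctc
The Abcb10 window is chr8:123983123-123983372 on the minus strand, and neither motif occurs in it. The Slc25a38 window is chr9:120110132-120110381 on the plus strand, with 2 overlapping CACC matches that end next to the start. The Abcb6 window is chr1:75180393-75180642 on the minus strand, with 4 CACC matches. The Steap3 window is chr1:120271081-120271330 on the minus strand, with 1 GATA match that begins at position -45 from the start and 1 CACC match. Among the 10 windows, 1 held the GATA motif and 7 held the CACC motif. Of all 32851 windows of the same length, 26.5% held the GATA motif and 45.9% the CACC motif. These matches describe letters in a window and say nothing about binding.

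All values below are log2 signals as deposited, which the authors had scaled to 18S RNA, Gapdh and beta-actin. The median log2 signal of the arrays ran from 1.83 to 2.94, and the number of arrays limits the precision. The arrays fell into 2 kinds by the beta-actin control probe sets. In 3 arrays (S1 replicates 1 and 2 and S3 replicate 2) the 5′ probe set read far below the 3′ one, with log2 differences of -2.08, -2.59 and -2.20. In the other 3 arrays (S1 replicate 3 and S3 replicates 1 and 3) the differences were -0.47, -0.45 and -0.56. The first kind is called short and the second long. Since S1 has 2 short arrays and S3 has 1, each comparison is given over all 6 arrays and again with the kind of array in the model (the class block). Red cell markers were present: the summed linear signal of 6 erythroid markers ran from 2180 to 3096 in S1 and from 5481 to 7199 in S3. Of these 6, Slc4a1, Alas2 and Epb42 were each higher on every S3 array, while Gata1, Klf1 and Epor overlapped between the subsets. Other cell types left some signal. The 5 megakaryocyte markers were above background on all 6 arrays and summed to 76.7 to 174 in S1 and 326 to 346 in S3, and Pf4, Gp9 and Ppbp were each higher on every S3 array, while Gp1bb and Itga2b overlapped between the subsets. Hepatoblast markers summed to 244 to 295 in S1 and 225 to 800 in S3, with 5 of 6 above background on all arrays. Among them Ttr was higher on every S3 array, while Alb, Afp, Apoa1, Krt18 and Krt8 overlapped between the subsets. Of 9 macrophage markers 2 were above background on all arrays, with sums of 32.7 to 121 in S1 and 43.9 to 98.7 in S3. Of 4 granulocyte-monocyte and 3 lymphoid markers, 0 were above background on all arrays, with sums of 16.6 to 25.1 and 1.67 to 6.30 in S1 and of 4.57 to 15.2 and 2.16 to 2.49 in S3. The part of these cells in the values below was not tested. In sorted cell populations, fewer cells of a type and less RNA per cell cannot be told apart.

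Of the 8 genes, Slc25a37 and Abcb10 rose from S1 to S3, and 0 fell (limma, adjusted p under 0.05, brightest probe set of each gene). Over all 11959 genes tested, 2.53% were called higher and 12.8% lower. With the class block, 4 genes rose (Slc25a37, Abcb10, Slc25a38 and Abcb6) and 0 fell, where 5.81% of all genes were called higher and 41.2% lower. The median log2 change of the 8 genes was 0.73, against -0.33 for all genes tested, and with the class block 0.54 against -0.54. Every S3 array lay above every S1 array for 4 genes (Slc25a37, Slc25a38, Abcb10 and Abcb6), as it did for 5.81% of all genes. S3 lay above S1 among the short arrays and again among the long arrays for 6 genes, all but Steap3 and Slc11a2, as it did for 10.2% of all genes. At the brightest probe set, 0 of Tfrc, Steap3, Slc11a2 and Glrx5 were called, with or without the class block.

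**Figure D1:**
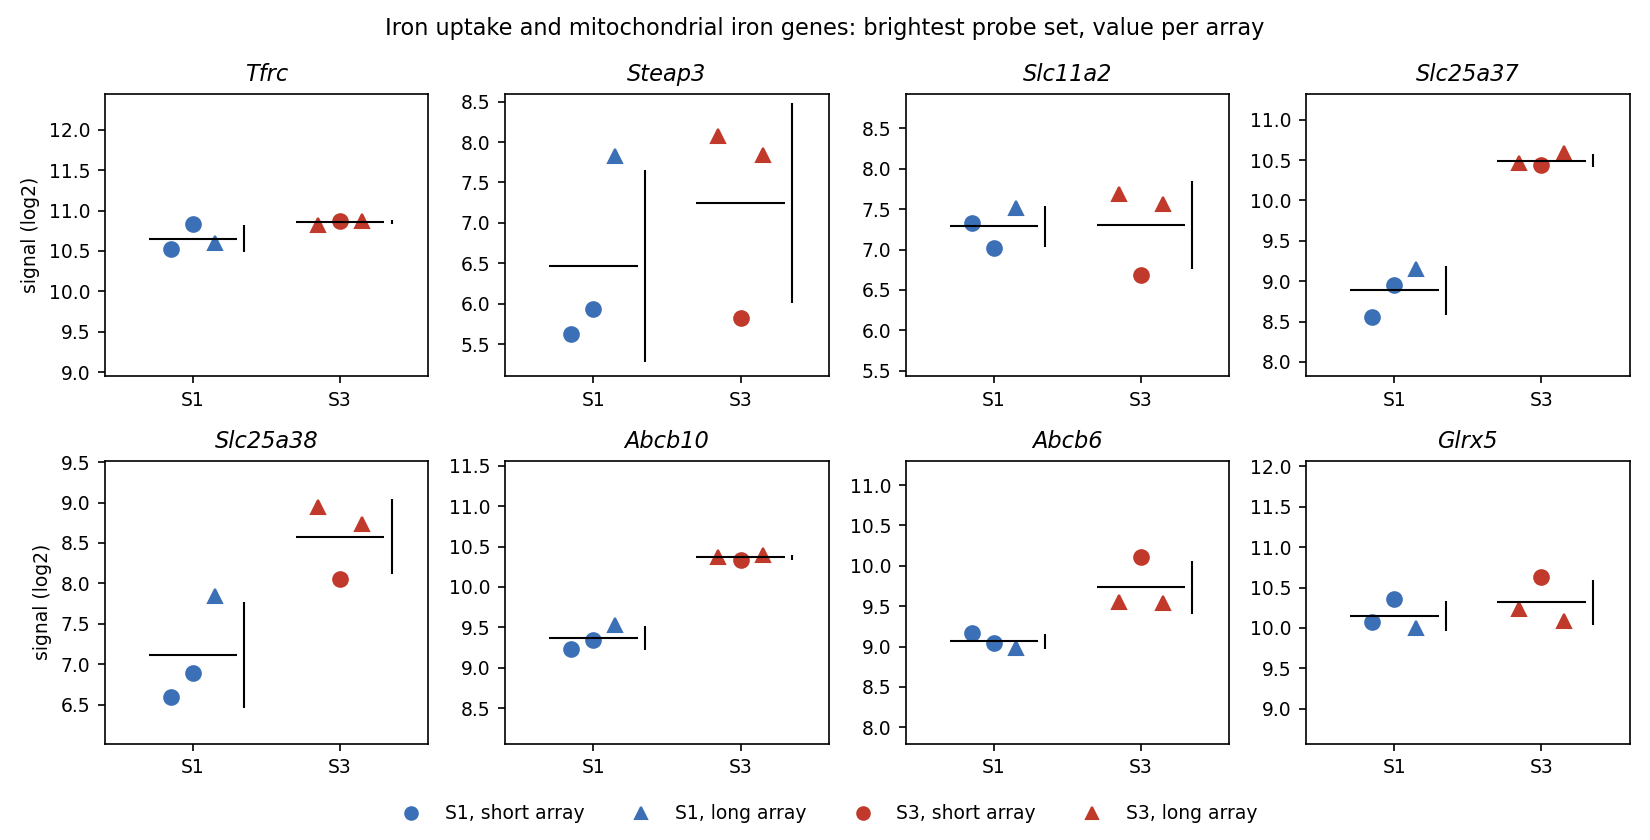
Log2 signal (vertical axes, each spanning the same range) of the brightest probe set of each of the 8 genes in S1 and S3. Points are arrays (circles short, triangles long), horizontal lines are means and vertical lines SD (n = 3). Slc25a37, Slc25a38, Abcb10 and Abcb6 have no overlap between subsets, while Steap3 splits by the kind of array.

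Tfrc, the receptor gene, read well above background on every array of both subsets. Its brightest probe set (1452661_at) read 10.52, 10.84 and 10.59 in S1 replicates 1 to 3 and 10.83, 10.88 and 10.87 in S3 replicates 1 to 3. The subsets overlapped by a small margin, since S1 replicate 2 lay above S3 replicate 1. The log2 difference of S3 minus S1 was 0.21 ± 0.10 (SE), a 1.16-fold ratio with a 95% interval of 0.99 to 1.35, and it did not pass (limma, adjusted p = 0.20). The class block gave 0.23 (adjusted p = 0.076). On the authors' scale the 95% interval includes no difference and reaches up to a 1.35-fold rise at this probe set. With median centring, quantile normalization and the trimmed mean the difference was 0.44, 0.25 and 0.48 (limma, adjusted p = 0.47, 0.14 and 0.22). With the class block and median centring it was 0.68 and passed (limma, adjusted p = 0.019). The upper end of 1.35-fold thus holds for the authors' scale and this probe set only. Since CD71 was one of the stains used for the sort, Tfrc is not independent of how the cells were chosen.

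The other Tfrc probe sets gave larger differences. Probe set 1422966_a_at read 9.74, 9.86 and 9.73 in S1 and 10.10, 10.28 and 10.22 in S3. Here the subsets did not overlap, and the log2 difference was 0.42 ± 0.11 (adjusted p = 0.065 over 27022 probe sets), or 0.45 with the class block (limma, adjusted p = 0.0079). Probe set 1422967_a_at read 5.72, 6.84 and 8.25 in S1 and 9.12, 7.81 and 9.19 in S3, a log2 difference of 1.77 ± 0.66 (limma, adjusted p = 0.16). Each long array lay above each short one at this probe set, and S1 replicate 3, a long array, lay above S3 replicate 2, a short one. Under the class block the difference came to 1.22 ± 0.30 and passed (limma, adjusted p = 0.017). With single arrays left out and no block, it ran from 1.16 (without S1 replicate 1; limma, adjusted p = 0.34) to 2.43 (without S1 replicate 3; limma, adjusted p = 0.047). The last was the one such fit of 6 that passed, and the others had adjusted p from 0.095 to 0.39 (limma).

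The 3 control probe sets of Tfrc show where along the transcript the arrays part. At the 3′ end the values were 9.28, 9.34 and 9.25 in S1 and 9.61, 9.91 and 9.80 in S3. The S3 arrays were all higher there, and the kinds of array were mixed. In the middle the values were 5.62, 6.54 and 7.64 in S1 and 8.18, 7.49 and 8.79 in S3. At the 5′ end they were 4.27, 4.75 and 7.45 in S1 and 8.39, 6.14 and 8.55 in S3. Within S1 the 5′ values of the short arrays were thus far below that of the long array, and within S3 the short array was the lowest. The 5′ minus 3′ log2 difference was -5.01, -4.58 and -1.79 in S1 replicates 1 to 3 and -1.22, -3.77 and -1.26 in S3 replicates 1 to 3. Added to the probe-set fit after the file was seen, the 3′, middle and 5′ probe sets changed by 0.48, 1.56 and 2.20 on the log2 scale, and none passed (limma, adjusted p = 0.083, 0.15 and 0.23). Once the kind of array was in the model, the changes were 0.53, 1.13 and 1.32, and all 3 passed (limma, adjusted p = 0.0074, 0.024 and 0.0050). All 6 Tfrc probe sets were higher in S3, by log2 differences from 0.21 to 2.20. In each of them S3 lay above S1 within both kinds of array, as at 10.0% of all probe sets tested.

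**Figure D2:**
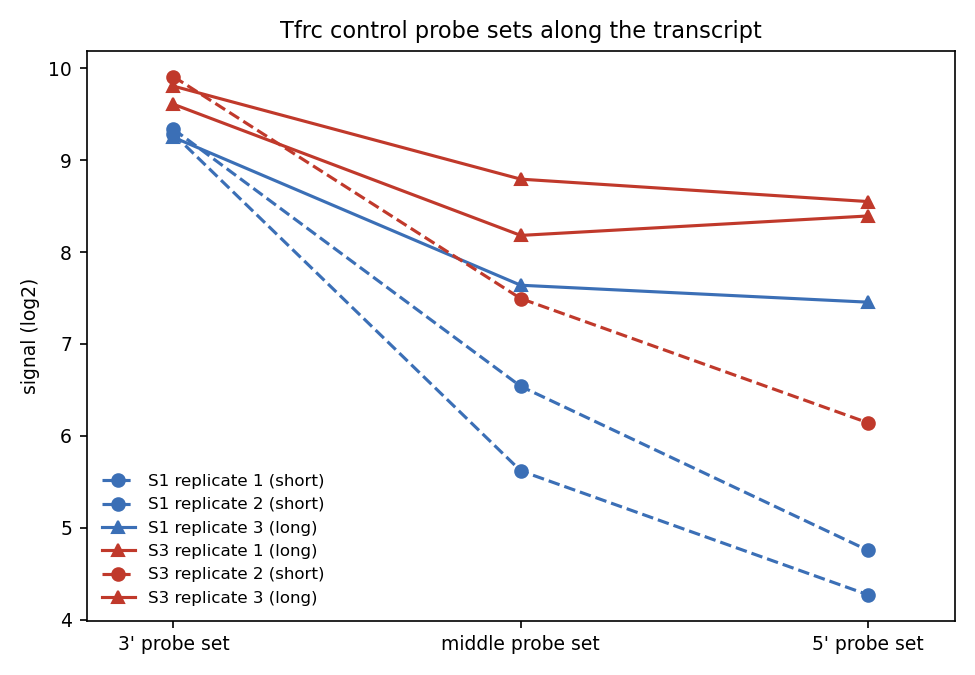
Log2 signal (vertical axis) of the 3 Tfrc control probe sets, from the 3′ end to the 5′ end of the transcript (horizontal axis), one line per array. The S3 lines (red) start above the S1 lines (blue) at the 3′ end. Short arrays (dashed) drop steeply to 4.27, 4.75 and 6.14 at the 5′ end, while long arrays (solid) stay between 7.45 and 8.55.

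Steap3, which reduces iron in the endosome before its exit, followed the kind of array. Its brightest probe set (1423468_at) read 5.63, 5.93 and 7.82 in S1 and 8.07, 5.82 and 7.85 in S3. The 3 long arrays lay between 7.82 and 8.07 and the 3 short ones between 5.63 and 5.93, whatever the subset. The log2 difference of S3 minus S1 was 0.79 ± 0.78, a 1.73-fold ratio with a 95% interval from 0.487 to 6.13 (limma, adjusted p = 0.59). Under the class block it was 0.09 (adjusted p = 0.75), while short minus long arrays gave -2.09 ± 0.19 in the same model. The other Steap3 probe sets, 1430355_a_at and 1453498_x_at, had short minus long differences of -2.91 and -2.13 and subset differences of -0.09 and 0.26 with the class block, and neither passed (limma, adjusted p = 0.87 and 0.61). For all 3 Steap3 probe sets every long array lay above every short one. The share of all probe sets with such a split was not counted. By another measure, the class block fit, 30.6% of all probe sets were called lower in short arrays. Within the long arrays S3 minus S1 was 0.14 at the brightest probe set, and within the short arrays 0.04.

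Slc11a2, the carrier that takes reduced iron out of the endosome, was near equal in the subsets. Its brightest probe set (1452078_a_at) read 7.33, 7.02 and 7.51 in S1 and 7.68, 6.68 and 7.56 in S3. S3 replicate 2 was the lowest of the 6 arrays and S3 replicate 1 the highest, so that the S1 values lay inside the S3 range. The log2 difference was 0.02 ± 0.36, with a 95% interval on the ratio of 0.564 to 1.83 (limma, adjusted p = 0.98). Probe sets 1426441_at, 1417584_at and 1441709_at gave -0.07, -0.06 and -0.26, and none of them passed (limma, adjusted p = 0.96, 0.97 and 0.88). In the class block model all 4 were below 0, from -0.19 to -0.71, and none passed (limma, adjusted p from 0.13 to 0.62). Its sign at the brightest probe set was positive under each scaling tried and changed with the class block, with the mean of its probe sets and without S3 replicate 1, and the other 3 probe sets changed sign under some scalings, so no direction is given. The intervals do not show that the subsets were equal.

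**Figure D3:**
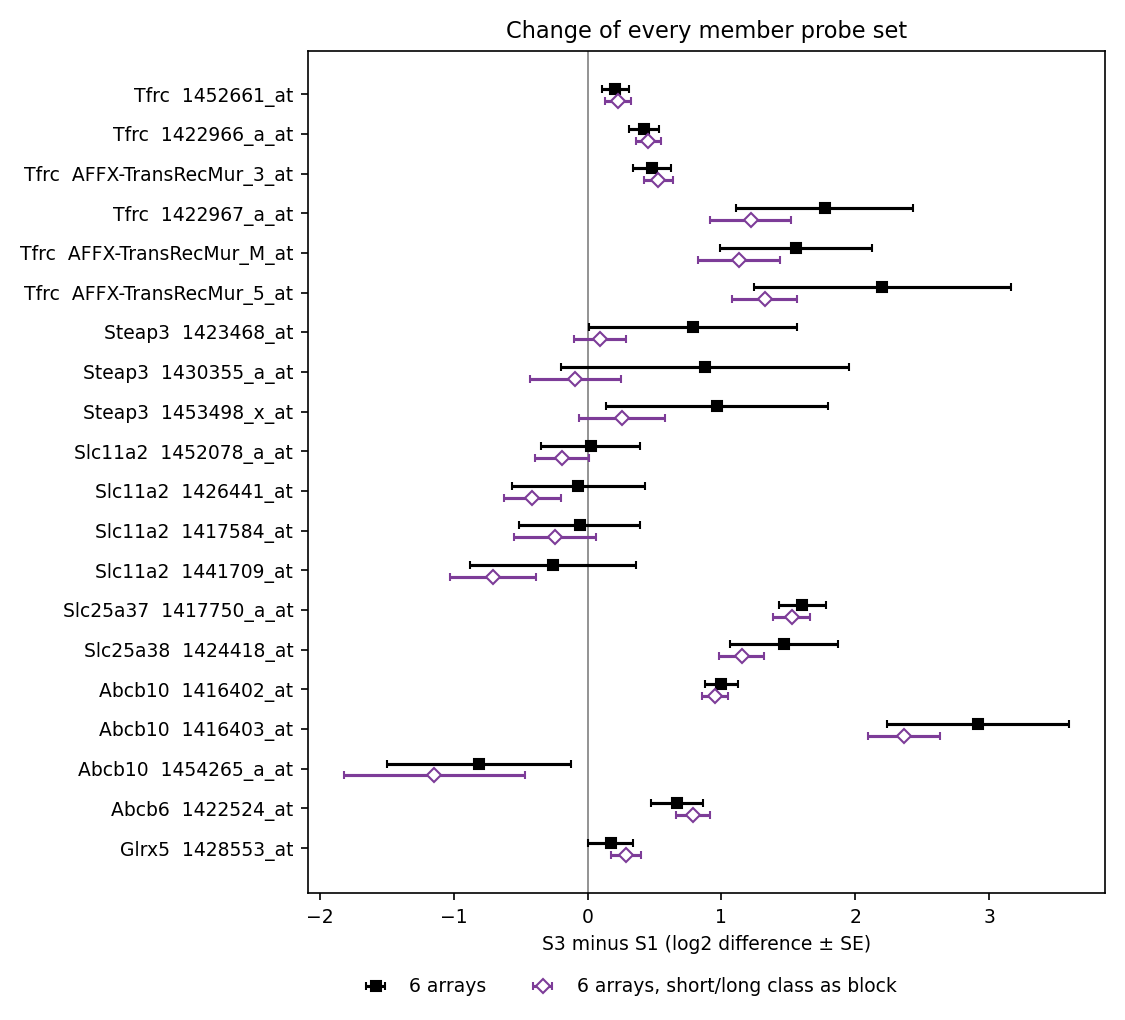
S3 minus S1 log2 difference (horizontal axis, points with SE bars) for each of the 20 probe sets of the 8 genes (vertical axis). Black squares are the fit over all 6 arrays and open diamonds the fit with the short or long kind of array as a block. The Steap3 differences of 0.79 to 0.97 fall to between -0.09 and 0.26 with the block, while those of Slc25a37 and Abcb10 1416402_at barely move.

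Slc25a37, the inner-membrane iron carrier of red cell mitochondria, had the largest called rise among the 8 genes at gene level. Its probe set (1417750_a_at) read 8.56, 8.96 and 9.15 in S1 and 10.46, 10.43 and 10.59 in S3. The lowest S3 array lay 1.28 above the highest S1 array on the log2 scale, and the S3 arrays lay close together (SD 0.08, against 0.30 in S1, n = 3). The log2 difference was 1.61 ± 0.17, or 3.04-fold with a 95% interval of 2.31 to 4.01 (limma, adjusted p = 0.0031). It was 1.68 within the short arrays and 1.37 within the long arrays, and 1.52 with the class block (limma, adjusted p = 1.8e-05). Relative to the median of all genes the difference was 1.94. The call was kept in all 20 alternative settings tried at gene level, with adjusted p up to 0.026.

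Slc25a38, the mitochondrial carrier held to supply glycine for the first step of heme synthesis, was also higher on every S3 array. Its probe set (1424418_at) read 6.59, 6.89 and 7.85 in S1 and 8.94, 8.05 and 8.74 in S3. The gap between the subsets was small, because the long S1 array (7.85) and the short S3 array (8.05) were close. The log2 difference was 1.47 ± 0.41, or 2.77-fold with a 95% interval of 1.43 to 5.35, and it narrowly missed the threshold (limma, adjusted p = 0.051). Under the class block the difference was 1.15 ± 0.17 and passed (limma, adjusted p = 0.00043), with short minus long at -0.95. Within the short arrays S3 minus S1 was 1.31 and within the long arrays 0.99. Leaving out either of those close arrays brought the call: dropping S1 replicate 3 gave a limma adjusted p of 0.022, and dropping S3 replicate 2 gave 0.035. Each of the other 4 arrays left out moved it further from the threshold (limma, adjusted p from 0.15 to 0.16).

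Abcb10, the inner-membrane transporter that is needed for hemoglobin formation and binds mitoferrin 1, rose at both of its bright probe sets. Probe set 1416402_at read 9.23, 9.35 and 9.53 in S1 and 10.37, 10.34 and 10.39 in S3. The S3 arrays differed among themselves by at most 0.055 and stood clear of S1. The log2 difference was 1.00 ± 0.12, or 2.00-fold with a 95% interval of 1.65 to 2.42 (limma, adjusted p = 0.0036), and 0.95 with the class block. Probe set 1416403_at read 4.40, 3.67 and 5.79 in S1 and 8.07, 6.51 and 8.03 in S3, again with no overlap. Its log2 difference was 2.92 ± 0.68 (limma, adjusted p = 0.041), and 2.37 ± 0.27 with the class block (limma, adjusted p = 0.00070). That call was lost without S1 replicate 1 or 2 or S3 replicate 1 or 3 (limma, adjusted p from 0.13 to 0.15), and without an intensity trend (limma, adjusted p = 0.073).

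The third Abcb10 probe set, 1454265_a_at, stood apart from the other two. It read 1.32, 1.93 and 1.94 in S1 and 1.79, -0.20 and 1.17 in S3, near the background of bacterial control probe sets, which ran from 1.01 to 1.74 over the arrays. It was above background on 3 S1 arrays and 1 S3 array. Its log2 difference was -0.81 ± 0.69 and did not pass (limma, adjusted p = 0.59). Taken as the mean over its 3 probe sets, Abcb10 was 1.03 higher in S3 and did not pass (limma, adjusted p = 0.21). The gene's call rests on its brightest probe set, 1416402_at.

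Abcb6, known for porphyrin transport, was modestly higher in S3. Its probe set (1422524_at) read 9.16, 9.05 and 8.98 in S1 and 9.55, 10.11 and 9.54 in S3. The subsets did not overlap, and the short S3 array was the highest of the 6. The log2 difference was 0.67 ± 0.19, or 1.59-fold with a 95% interval of 1.17 to 2.16, and it narrowly missed the threshold (limma, adjusted p = 0.054). The class block raised it to 0.79 ± 0.13, which passed (limma, adjusted p = 0.00063), and it was 1.01 within the short arrays and 0.56 within the long arrays. Without the block it passed with quantile normalization (limma, adjusted p = 0.049). It did not pass with median centring, the trimmed mean or no intensity trend (limma, adjusted p = 0.18, 0.10 and 0.16). Nor did it pass with any 1 array left out (limma, adjusted p from 0.089 to 0.14). Short arrays read higher than long ones by 0.35 ± 0.13 here, the opposite sign to Steap3, but this difference did not pass (limma, adjusted p = 0.074).

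Glrx5, the glutaredoxin of the iron-sulfur pathway, was near equal in the subsets over all 6 arrays. Its probe set (1428553_at) read 10.08, 10.35 and 10.00 in S1 and 10.24, 10.63 and 10.09 in S3. S1 replicate 2, a short array, lay above the 2 long S3 arrays, so the subsets overlapped. The log2 difference was 0.17 ± 0.16, with a 95% interval on the ratio of 0.863 to 1.47 (limma, adjusted p = 0.57). Under the class block it was 0.29 ± 0.11 and again did not pass (limma, adjusted p = 0.055). S3 was higher by 0.41 within the short arrays and by 0.16 within the long ones.

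Across probe sets, 3 of 17 tested rose (Slc25a37 1417750_a_at and Abcb10 1416402_at and 1416403_at) and 0 fell, where 1.61% of all 27022 probe sets were called higher and 6.66% lower. With the class block 7 of 17 rose and 0 fell, where 4.16% of all probe sets were called higher and 28.2% lower. The 4 added by the block were Tfrc 1422966_a_at and 1422967_a_at, Slc25a38 1424418_at and Abcb6 1422524_at. Every S3 array lay above every S1 array at 6 of 17 probe sets, as at 5.39% of all probe sets. S3 lay above S1 within both kinds of array at 10 of 17, as at 10.0% of all. The median log2 change of the 17 probe sets was 0.67, against -0.24 for all probe sets tested.

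The kind of array moved many of the same probe sets. In the model with both terms, 9 of 17 were called lower in short than in long arrays and 0 higher, where 30.6% of all probe sets were called lower. These 9 were the 3 of Steap3, 3 of the 4 of Slc11a2, Tfrc 1422967_a_at, Slc25a38 1424418_at and Abcb10 1416403_at. The median short minus long difference of the 17 was -0.95, against -0.61 for all probe sets. Slc25a37, Abcb10 1416402_at and the 2 brighter Tfrc probe sets differed between the kinds of array by -0.24, -0.14, 0.06 and 0.09 and did not pass (limma, adjusted p from 0.23 to 0.73). The probe sets of one gene therefore differed in how strongly they followed the kind of array, by up to 2.77 on the log2 scale for Tfrc.

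**Figure D4:**
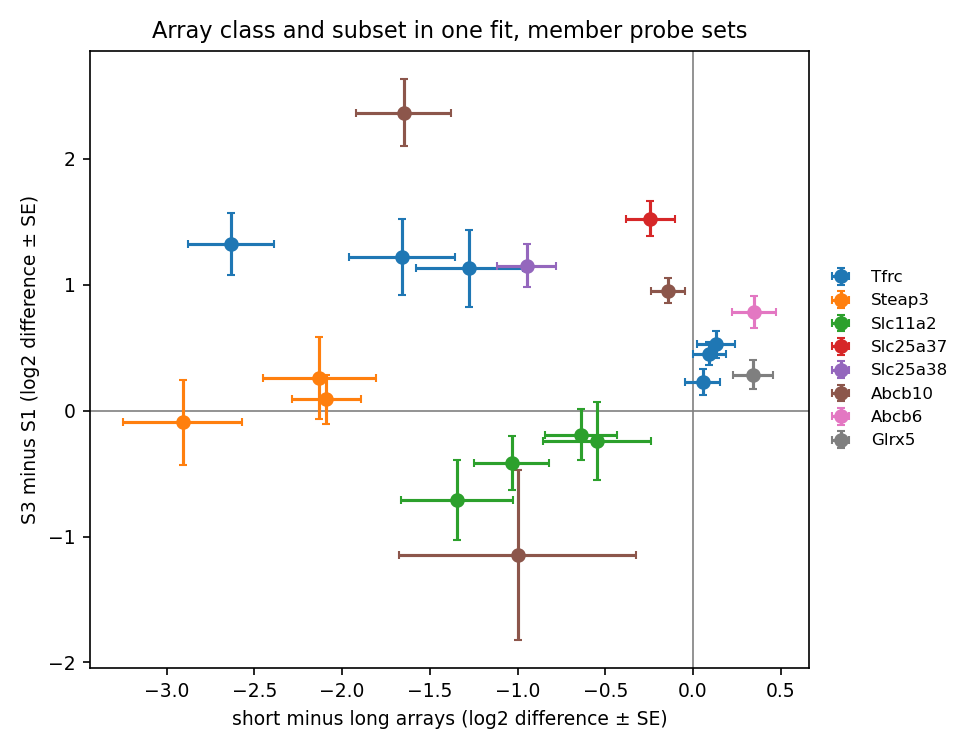
Short minus long arrays (horizontal axis) against S3 minus S1 (vertical axis), both as log2 differences with SE from one model, for the 20 probe sets of the 8 genes (colours). Steap3 lies far to the left at a subset difference near 0, Slc25a37 and Abcb10 1416402_at lie high near the vertical line, and Abcb10 1416403_at is both left and high.

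The median of all genes was -0.33 in S3 minus S1 on the authors' scale. It was -0.10 with median centring, -0.07 with quantile normalization and -0.06 with a common trimmed mean. Relative to the median of all genes on the authors' scale, the changes of the 8 genes were 1.94 for Slc25a37, 1.80 for Slc25a38, 1.33 for Abcb10, 1.12 for Steap3, 1.00 for Abcb6, 0.54 for Tfrc, 0.51 for Glrx5 and 0.36 for Slc11a2. Over all genes, 302 were called higher and 1533 lower, and the split was 478 to 972 with median centring, 695 to 1127 with quantile normalization and 616 to 1137 with the trimmed mean. Slc25a37 and Abcb10 were called higher under each of these 3, and Slc25a38 too, at log2 differences of 1.70, 1.77 and 1.74 (limma, adjusted p = 0.0055, 0.0023 and 0.0043). Abcb6 was called with quantile normalization only.

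Other iron genes were read from 4 lists of 52 genes, of which 40 were tested. Of these 40, 5 rose and 3 fell in S3, and the other 32 did not pass, where 2.53% of all genes were called higher and 12.8% lower. In the class block model 8 rose and 13 fell, where 5.81% of all genes were called higher and 41.2% lower. Lower calls were this common among all genes, so the counts with the class block are not read as a result about the lists. Without an intensity trend in limma, the calls of Ncoa4, Isca1, Lyrm4 and Fech described below were lost (adjusted p = 0.13, 0.13, 0.14 and 0.088). The median log2 change of the 40 was -0.01, against -0.33 for all genes, or -0.18 against -0.54 with the class block.

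In 4 genes that were not called at the brightest probe set, another probe set was called in the probe-set fit, as seen afterwards. How many other probe sets were looked through was not counted. Over all 27022 probe sets, 1.61% were called higher and 6.66% lower, so these 4 are given as single values only. Slc25a39 1453111_a_at read 8.20, 7.86 and 8.23 in S1 and 9.51, 9.41 and 9.43 in S3, a rise of 1.35 ± 0.19 (limma, adjusted p = 0.0085). Hspa9 1418503_at (a mitochondrial chaperone) fell by 1.00 ± 0.17, and Aco1 1423644_at (iron regulatory protein 1) fell by 1.83 ± 0.37 (limma, adjusted p = 0.016 and 0.028). Slc39a14 1438490_at was above background on all 3 S1 arrays and on 0 S3 arrays, at least 5.04-fold lower in S3 (limma, adjusted p = 0.0085).

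The list of transferrin cycle partners also holds other iron handling genes outside that cycle, Ncoa4 and Slc39a14 among them. Of its 10 tested genes, 1 rose and 0 fell, with a median log2 change of -0.08. Ncoa4, the cargo receptor that takes ferritin to the lysosome, read 9.28, 9.05 and 9.58 in S1 and 10.13, 9.82 and 10.14 in S3. Its subsets did not overlap, with a log2 difference of 0.73 ± 0.18 (limma, adjusted p = 0.032). The call was lost without S1 replicate 1 or 2 or S3 replicate 1 or 3 (limma, adjusted p from 0.10 to 0.12), and with median centring, where the difference was 0.96 (limma, adjusted p = 0.061). Slc39a14, a zinc and iron importer singled out after its values were seen, read 4.06, 3.75 and 5.88 in S1 and 2.67, -3.15 and 0.015 in S3 at its brightest probe set. S3 replicates 2 and 3 were not above their background of 1.21 and 1.52 there, so its fitted difference has no measured size. It did not pass over all 6 arrays and passed with the class block (limma, adjusted p = 0.061 and 0.00029).

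Of 13 tested genes of iron-sulfur cluster assembly, 1 rose and 2 fell, with a median log2 change of -0.20, against -0.33 for all genes and beside the 12.8% of all genes called lower. Isca1, a late-acting assembly factor, read 9.66, 9.50 and 9.60 in S1 and 10.22, 10.12 and 10.17 in S3, a rise of 0.58 ± 0.11 (limma, adjusted p = 0.013). Fdx1, a mitochondrial ferredoxin that passes electrons, read 5.84, 6.30 and 7.06 in S1 and 4.79, 3.89 and 4.47 in S3, a change of -2.01 ± 0.47 (limma, adjusted p = 0.028). Lyrm4, a partner of the cysteine desulfurase, read 10.03, 10.40 and 10.16 in S1 and 9.39, 9.78 and 9.46 in S3, a change of -0.66 ± 0.15 (limma, adjusted p = 0.029). All 3 had subsets without overlap. The Fdx1 call was lost with any 1 array left out (limma, adjusted p from 0.054 to 0.091). Isca1 missed the threshold without S1 replicate 2 or S3 replicate 1 or 3 (limma, adjusted p from 0.054 to 0.061) and with median centring (limma, adjusted p = 0.15). Lyrm4 missed it without any 1 array but S3 replicate 2 (limma, adjusted p from 0.059 to 0.11), and its change was -0.42 with median centring and -0.38 with the trimmed mean (limma, adjusted p = 0.53 and 0.44).

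Of 9 tested paralogs of the 8 genes, 0 were called in either direction at the brightest probe set over all 6 arrays, with a median log2 change of -0.23. The smallest p belonged to Glrx, the cytosolic glutaredoxin, at 5.07, 4.97 and 7.88 in S1 and 8.95, 6.53 and 8.62 in S3. The long S1 array lay above the short S3 array, and the log2 difference was 2.06 ± 0.94 (limma, adjusted p = 0.20). Next came Slc25a39, a mitochondrial carrier of glutathione, at 10.14, 10.15 and 9.61 in S1 and 10.37, 10.77 and 10.10 in S3, a difference of 0.45 ± 0.21 (limma, adjusted p = 0.21). Both passed with the class block, at 1.21 and 0.62 (limma, adjusted p = 0.0012 and 0.00059).

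Of 11 tested iron-responsive and heme handling genes, 3 rose and 1 fell, with a median log2 change of 0.24. Alas2, the erythroid enzyme that opens the heme pathway, read 4.75, 5.30 and 6.48 in S1 and 10.59, 10.09 and 10.50 in S3, a rise of 4.88 ± 0.45 (limma, adjusted p = 0.0028). Ppox and Fech, the enzymes of the last steps of heme synthesis, rose by 1.39 ± 0.16 and 0.69 ± 0.08 (limma, adjusted p = 0.0035 and 0.0038). Flvcr1, a heme exporter, read 8.12, 8.34 and 8.87 in S1 and 7.29, 6.15 and 6.79 in S3, a change of -1.70 ± 0.38 (limma, adjusted p = 0.024). Fech missed the threshold with median centring (limma, adjusted p = 0.092), and Flvcr1 without any 1 of the S1 arrays or S3 replicate 3 (limma, adjusted p from 0.061 to 0.084).

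**Figure D5:**
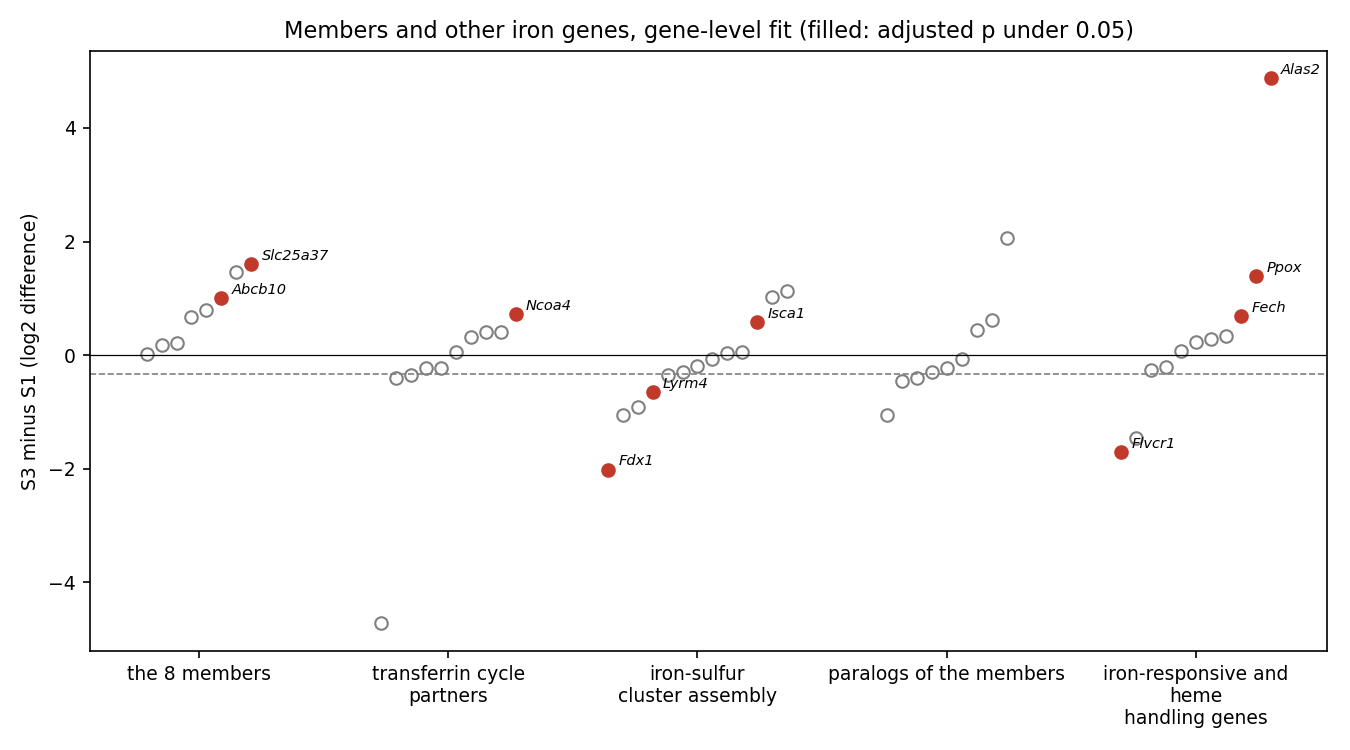
S3 minus S1 log2 difference (vertical axis) of each tested gene of the 8 members and of the 4 lists of other iron genes (horizontal axis, genes ordered by value within a list). Filled points passed an adjusted p of 0.05 and are named. The dashed line is the median of all genes tested, -0.33, and all 8 members lie above it.

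Over the 6 arrays, the values of the called genes resembled those of some others. Slc25a37 was most like Ypel4, Smox and Acbd4 (Pearson r = 0.999, 0.998 and 0.997), and 183 of the genes tested had r above 0.95 with it. Abcb10 was most like Alas2, Ube2l6 and Runx1t1 (Pearson r = 0.998, 0.998 and 0.997), with 202 genes above 0.95. These r describe 6 arrays in 2 subsets, so a shared rise from S1 to S3 weighs heavily in them.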

How the data were processed

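RNA of 6 sorted samples was amplified, labelled with biotin and hybridised to Affymetrix mouse genome arrays, as the labels and the design text state. MAS5 produced the signals, per the submitters' processing notes, and the authors scaled them to 18S RNA, Gapdh and beta-actin. The deposited values are log2 signals. No source names the base of the logarithm, and base 2 was inferred from the size of MAS5 signals. Arrays were grouped by their titles.

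Probe sets were tested if their mean log2 signal passed the 40th percentile of non-control probe sets, which left 27022 probe sets and 11959 genes (brightest probe set each). S3 minus S1 was fitted on each whole table with limma 3.58.1 (R 4.3.3; two-sided, lmFit and eBayes, intensity trend). P-values were adjusted by Benjamini-Hochberg and called below 0.05. Values for a gene come from the gene fit and those of its other probe sets from the probe-set fit. The class block adds a term for short or long arrays, which lie below or above -1.5 in the beta-actin 5′ minus 3′ difference. Background was the 95th percentile, per array, of 27 bacterial control probe sets. The fits were tested on simulated data. P-values measure the spread between these sorts.

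The 8 genes, the lists and the array classes were chosen with earlier results of these data known. All members were named, with the called genes of each list (up to 4 with the smallest p, or 2 where none was called) and the 3 genes most like each called member. Alternatives were other scalings, filters, added constants and variance models, probe-set means, the replicate number or array class as a block, each class alone and each array left out. Fits with the Tfrc control probe sets were added after seeing the data.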

Additional observations from a re-analysis of the deposited data

How the results depend on the processing

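Slc25a37 kept its call in all 20 gene-level alternatives, and Abcb10 in 19, the exception being the mean over its probe sets. These 20 are not independent and include each kind of array alone. For Slc25a37, which has 1 probe set, the mean of probe sets repeats the same values. Of the 8 genes, 2 were called. The count, of rises only, was 4 with quantile normalization, where 695 of all 11965 genes were called higher and 1127 lower. It was also 4 with a 60th percentile filter (of all 8720 genes, 314 higher and 1493 lower). With the class block it was 4 (of all 11959 genes, 695 higher and 4922 lower). With that block and median centring it was 6, adding Tfrc and Glrx5 (all genes: 1024 higher and 2013 lower). With the mean of probe sets it was 1 (all genes: 241 higher and 991 lower). With the replicate block the count was 4, adding Slc25a38 and Abcb6 (limma, adjusted p = 0.037 and 0.048). Over all genes, 412 were called higher and 1897 lower with that block. The labels do not say that replicate numbers mark shared days, and the deviations of same-numbered arrays correlated at 0.02, 0.39 and 0.41, so not every pair was above 0.1. Number 1 joins a short and a long array, and the other numbers join arrays of one kind. Of the 17 probe sets, 3 were called, all as rises. The count was 5 with median centring, where 748 of all 27022 probe sets were called higher and 1144 lower. It was also 5 with the trimmed mean (all probe sets: 949 higher and 1446 lower). With quantile normalization it was 6 (all: 1095 higher and 1415 lower), and without an intensity trend 1 (all: 254 and 1142). With the class block it was 7 (all: 1125 and 7618), and 9 with that block and median centring (all: 1617 and 2639). For the 8 genes and the 17 probe sets, counts in the short or the long arrays alone are left out. Short arrays alone have 1 S3 array and long arrays alone 1 S1 array, each assumed to vary like the others, with 1 residual degree of freedom. With the Tfrc control probe sets and the class block the count was 10 of 20 (of all 27025 probe sets, 1128 higher and 7618 lower). With 1 array left out it was 2 to 5, the highest without S1 replicate 3 (of all 27022 probe sets, 488 higher and 819 lower). Of the 40 other iron genes, 8 were called, 5 higher and 3 lower (all genes: 302 and 1533). The count was 13 with quantile normalization, 9 higher and 4 lower (all: 695 and 1127). Without a trend it was 4, 2 higher and 2 lower (all: 230 and 1251). With the class block it was 21, 8 higher and 13 lower (all: 695 and 4922). With that block and median centring it was 17, 12 higher and 5 lower (all: 1024 and 2013). It was 16 in long arrays alone, which hold 1 S1 array, so that count is not read as a result. With 1 array left out it was 3 to 7, the lowest without S1 replicate 2 or S3 replicate 3. Each of these called 3 higher and 0 lower (all: 147 and 608, and 119 and 675).

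Signs changed for values that were never called, near 0 for Slc11a2 but not for Steap3 1430355_a_at. Median centring adds the same amount to every change, so a flip under it says nothing particular to a probe set. Slc11a2 at its brightest probe set was -0.19 with the class block, -0.49 in short arrays alone, -0.091 as the mean of probe sets and -0.17 to 0.34 with 1 array left out. Its probe set 1426441_at became 0.16 (median centring), 0.28 (quantile), 0.20 (trimmed mean) and 0.036 (class block with centring), and -0.30 to 0.32 with 1 array left out. Probe set 1417584_at became 0.17, 0.30, 0.21 and 0.21 in those settings and 0.084 in long arrays alone, and -0.29 to 0.23 with 1 array left out. Probe set 1441709_at became 0.055 (quantile) and 0.012 (trimmed mean), and -0.59 to 0.29 with 1 array left out. Steap3 1430355_a_at was 0.88 over all 6 arrays, -0.094 with the class block, with or without the Tfrc controls, and -0.51 in short arrays alone. The cause of the other changes was not tested. The 6 arrays limit the precision, and signals near background, as at Abcb10 1454265_a_at, carry little information on a difference.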
